A study of Mus musculus with 20 samples.

Results

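Endothelins are small secreted vasoactive peptides. The precursor of endothelin-1, encoded by Edn1, is cut by furin-type proprotein convertases, and the membrane metalloprotease encoded by Ece1 then releases the active peptide. Endothelin-1 acts on 2 G protein-coupled receptors, encoded by Ednra and Ednrb, and the receptor encoded by Ednrb is also known for clearing the peptide from the circulation. In the lung, endothelin-1 is best known as a product of endothelial and epithelial cells that constricts airways and vessels, and macrophages are also known to make it.

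The transcripts described here are those of 4 genes, Edn1 (the ligand), Ednrb (the receptor), Ece1 (the converting enzyme) and Ecel1 (an Ece1-like protease of the same M13 family, best known from neurons), of 78409 genes in the deposited table. They were chosen by gene name with their levels in all 5 groups of these libraries known, so their values and differences are given as a description, without tests. The study also lists qPCR primers for Edn1 and took its qPCR candidates from these libraries, so its pattern here is not independent of that choice. Of the 4, Ednrb and Ece1 passed the filter on low values in all 6 pairwise comparisons. Edn1 passed in 3, in 1 of them (RNY1+/+ ProteinFx against PBS) only through the group in which it is high, and Ecel1 passed in none.

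The 20 libraries are from wild-type bone marrow-derived macrophages (BMDMs) of female C57BL/6J mice, 4 libraries per treatment. Cells at 200000 per well received PBS or a fraction of bronchoalveolar lavage fluid (BALF) from ovalbumin-challenged mice on day 7 of culture, and the donors of the fluid were RNY1+/+ or mice with both RNY1 alleles deleted (RNY1-/-). The genotype therefore belongs to the fluid and not to the macrophages. EV-enriched fractions (EVFx) were given at 35000000 particles/µL and Protein-enriched fractions (ProteinFx) at 0.75 µg/µL, so doses were matched between genotypes but not between fractions. The fractions, but by the labels not the PBS, were concentrated and kept for 5 days at 4 °C, all libraries carry 1 batch label, and nothing in the labels ties the libraries within a treatment to separate mice or pools of fluid. Tests below therefore measure the spread between these libraries only.

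Total counts ran from 2510005 to 8277366 per library. All 10 macrophage markers were above 3 counts in every library. Of 8 endothelial markers, 2 or 3 were above 3 counts, with a summed level of 17.2 to 30.4 CPM (the count of a gene scaled to the library's total) carried by Kdr and Vwf, whereas Cldn5 and Emcn were at 0 counts in all 20 libraries. Of 8 airway and alveolar epithelial markers, 0 to 2 were above 3 counts, and Sftpc, Sftpb, Sftpa1 and Scgb3a2 were at 0 throughout. Of 6 fibroblast markers, 3 to 5 were above 3 counts, summing to 11.1 to 51.6 CPM. In these bulk libraries, fewer cells that express a gene and less of its RNA per cell cannot be told apart.

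On GRCm38, the build of the annotation consulted, Edn1 lies on chr13:42301476-42307990 (plus strand), Ednrb on chr14:103814625-103844402 (minus strand), Ece1 on chr4:137862237-137965229 (plus strand) and Ecel1 on chr1:87147655-87156521 (minus strand). All 4 are protein-coding. The primer pair of the study for Edn1 is shown because it marks the stretch of the transcript that its qPCR reads. It brackets 145 bases, positions 814 to 958 of the 2139-base annotated transcript, within the coding region (420 to 1025), and spans exons 4 and 5 of 5.
Edn1 forward primer: cccaaagtaccatgcagaaaag
Edn1 reverse primer: gatgccttgatgctattgctg

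The 250 bases before the annotated RefSeq starts of Edn1 (chr13:42301226-42301475, plus strand) and Ednrb (chr14:103843702-103843951, minus strand), both in GRCm38.p6, are shown because these 2 members had the largest differences between treatments. The RefSeq start of Ednrb lies inside the gene interval given above, which comes from GENCODE. Matches to 5 motifs on either strand are in capitals. The motifs were TGANTCA for AP-1, AGATAA for GATA factors, GGGNNTTCC for NF-κB and ACGTG for hypoxia-inducible factors. The fifth, TGACTAA, is an AP-1-type element added after the sequence was seen.
Edn1 upstream: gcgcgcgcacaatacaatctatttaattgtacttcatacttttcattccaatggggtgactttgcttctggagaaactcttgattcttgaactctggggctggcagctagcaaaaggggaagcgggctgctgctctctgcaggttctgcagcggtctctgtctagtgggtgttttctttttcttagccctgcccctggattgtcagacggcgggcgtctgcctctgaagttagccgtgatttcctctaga
Ednrb upstream: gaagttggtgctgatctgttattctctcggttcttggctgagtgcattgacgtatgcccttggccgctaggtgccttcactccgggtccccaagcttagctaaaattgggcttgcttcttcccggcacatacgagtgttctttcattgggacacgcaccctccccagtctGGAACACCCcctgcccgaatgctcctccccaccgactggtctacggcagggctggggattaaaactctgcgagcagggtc
No match fell in these 250 bases of Edn1, and 1 NF-κB match (GGAACACCC, on the opposite strand) began 80 bases before the start of Ednrb. In the first 50 bases after the Edn1 start, a GATA match began at position 9, a hypoxia-inducible factor match at position 22 and the AP-1-type element at position 37. The stretch that holds the last 2, at chr13:42301493-42301522, is shown here with matches in capitals.
Edn1 downstream stretch: gctgCACGTtgcctgtgggTGACTAAtcac
Of 32851 RefSeq promoter windows of 300 bases, 7.81% held the AP-1 motif, 2.35% the AP-1-type element, 11.2% the GATA motif, 5.82% the NF-κB motif and 19.6% the hypoxia-inducible factor motif. These matches are descriptions of the letters and not of binding.

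Edn1, the ligand, was nearly absent after PBS, was present after every fraction and was highest after RNY1+/+ ProteinFx. The 4 PBS libraries held 0, 1, 1 and 2 Edn1 counts, all at or under the 3 counts taken as the floor of measurement. Its level was 6.20, 5.38, 4.20 and 3.75 CPM after RNY1+/+ EVFx (4.88 ± 1.12, mean ± SD, n = 4). After RNY1-/- EVFx it was 1.71, 3.13, 3.45 and 4.04 CPM (3.08 ± 0.99, SD, n = 4). These ranges overlap, and both lie wholly above PBS.

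After RNY1+/+ ProteinFx, Edn1 reached 20.5, 31.4, 20.1 and 44.4 CPM (29.1 ± 11.5, SD, n = 4), from 80 to 256 counts per library. After RNY1-/- ProteinFx it was 3.40, 2.38, 5.98 and 3.89 CPM (3.91 ± 1.51, SD, n = 4), from 15 to 18 counts. The lowest RNY1+/+ ProteinFx library thus lay above the highest library of every other group, and RNY1-/- ProteinFx overlapped both EVFx groups. In order of mean level the groups were RNY1+/+ ProteinFx, RNY1+/+ EVFx, RNY1-/- ProteinFx, RNY1-/- EVFx and PBS, of which the 3 in the middle overlapped one another, and neighbours among these 3 differed by less than the spread of their libraries.

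Against the floor of 3 counts per library in PBS, Edn1 was at least 50.7-fold higher after RNY1+/+ ProteinFx. The bound was at least 8.50-fold after RNY1+/+ EVFx, 6.81-fold after RNY1-/- ProteinFx and 5.36-fold after RNY1-/- EVFx. Summed epithelial markers were at 1.91 to 4.31 CPM in RNY1+/+ ProteinFx, 0.57 to 3.19 CPM in RNY1-/- ProteinFx and 0.89 to 3.89 CPM in PBS. Summed endothelial markers were at 24.7 to 25.6, 18.2 to 28.7 and 19.7 to 27.9 CPM in the same groups, of which Kdr had means of 14.2, 10.1 and 7.10 CPM and Cdh5 1.70, 1.04 and 0.40 CPM. Vwf ran from 6.59 to 11.6, 9.60 to 13.5 and 11.1 to 19.9 CPM in the same order. Kdr ranges overlapped between RNY1+/+ and RNY1-/- ProteinFx (12.8 to 17.5 and 7.00 to 13.5 CPM). Kdr means were 12.1 and 14.2 CPM after RNY1+/+ and RNY1-/- EVFx, where those of Cdh5 were 0.21 and 0.29 CPM. Cdh5 held at most 5 counts in a PBS library, near the floor. The part of these cell types in the Edn1 values was not tested. For scale, CPM was higher than in PBS with no overlap for 15.1% of all genes tested in RNY1+/+ EVFx, 15.8% in RNY1-/- EVFx, 15.7% in RNY1+/+ ProteinFx and 13.8% in RNY1-/- ProteinFx.

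**Figure D1:**
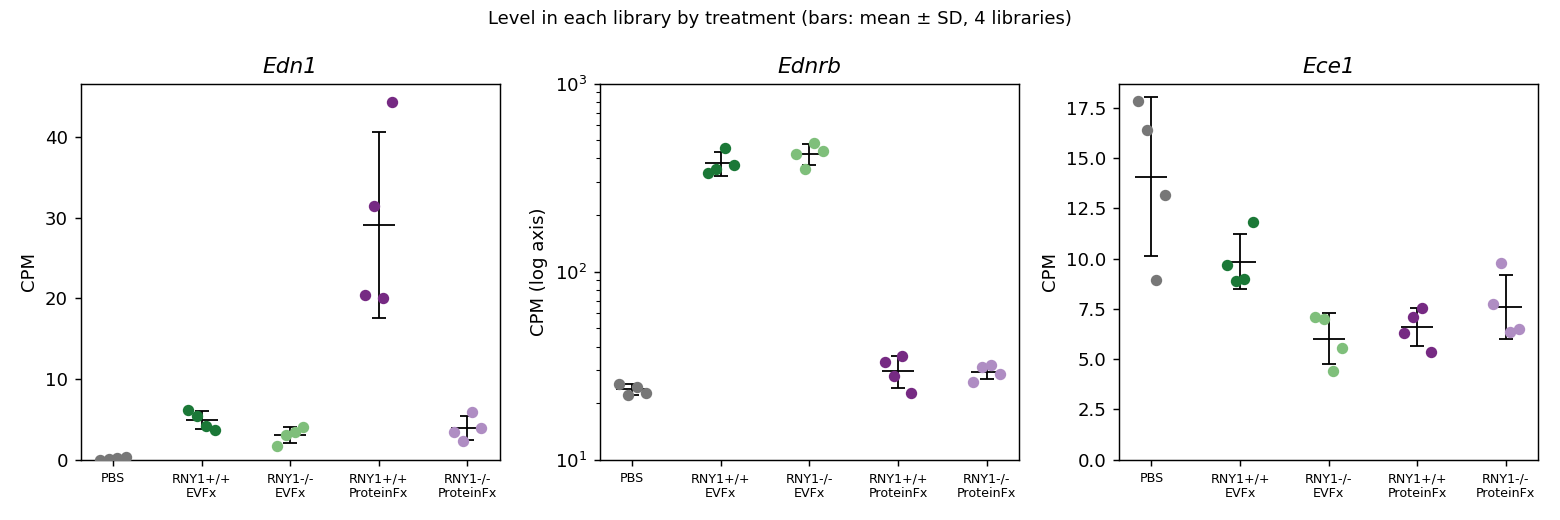
CPM of Edn1, Ednrb and Ece1 in each of the 20 libraries by treatment, with the mean and SD of 4 libraries. Ednrb is on a log axis. Edn1 stands highest in RNY1+/+ ProteinFx (20.1 to 44.4 CPM), Ednrb in both EVFx groups (335 to 484 CPM), and Ece1 in PBS (8.92 to 17.8 CPM).

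Between donor genotypes, the mean Edn1 level after ProteinFx was 7.44 times as high with RNY1+/+ as with RNY1-/- fluid. The edgeR log2 fold change of RNY1-/- against RNY1+/+ was -3.13 (SE 0.33), and it ranged from -3.34 to -2.81 when each library was left out in turn. This was the lowest fold change of 10472 genes tested. The groups did not overlap, which was so in this direction for 4.96% of all genes, and 1.82% of all genes were differentially expressed (DEGs, adjusted p under 0.05 and absolute log2 fold change above 1). Since Edn1 was chosen on this contrast, nothing is read from these ranks. After EVFx the log2 fold change was -0.64 (SE 0.27), from -0.85 to -0.40 with libraries left out, and the 2 groups overlapped. The genotype difference after ProteinFx exceeded that after EVFx by -2.50 (SE 0.50) on the log2 scale.

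Ednrb, the receptor, was high after both EVFx and close to PBS after both ProteinFx. The PBS libraries had 25.4, 22.1, 24.5 and 22.6 CPM (23.6 ± 1.56, SD, n = 4). After RNY1+/+ EVFx the level was 335, 350, 457 and 367 CPM (378 ± 54.8, SD, n = 4), and after RNY1-/- EVFx it was 424, 352, 484 and 440 CPM (425 ± 55.0, SD, n = 4). Both EVFx groups overlapped each other and lay far above all other libraries.

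Ednrb read 33.1, 27.9, 35.7 and 22.6 CPM after RNY1+/+ ProteinFx (29.8 ± 5.83, SD, n = 4). It read 26.1, 31.1, 31.9 and 28.5 CPM after RNY1-/- ProteinFx (29.4 ± 2.63, SD, n = 4). The first of these groups overlapped PBS and the second did not, by a margin of less than 1 CPM between the nearest libraries. Mean Ednrb after EVFx was 12.7 times that after ProteinFx with RNY1+/+ fluid and 14.5 times with RNY1-/- fluid, at doses that were not matched.

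The log2 fold change of Ednrb against PBS was 4.18 (SE 0.14) for RNY1+/+ EVFx and 4.41 (SE 0.14) for RNY1-/- EVFx, which placed it 77th of 10797 and 46th of 10730 genes from the highest. Summed neutrophil markers (5 to 7 of 8 above 3 counts) were lower in the EVFx libraries, at 156 to 221 CPM with RNY1+/+ and 198 to 279 CPM with RNY1-/- fluid against 327 to 364 CPM in PBS. Most of this sum was S100a8 and S100a9 (means of 158 and 130 CPM in PBS), and Ly6g was at 0 counts in PBS and EVFx. S100a8 after RNY1-/- EVFx (108 to 160 CPM) overlapped PBS (138 to 189 CPM), and S100a9 did not. Of 6 neuron markers, only Tubb3 was above 3 counts in any library. The part of these cell types in the Ednrb values was not tested. Among all genes, 16.4% were DEGs after RNY1+/+ EVFx and 22.5% after RNY1-/- EVFx. The log2 fold change was 0.50 (SE 0.15) for RNY1+/+ ProteinFx and 0.38 (SE 0.13) for RNY1-/- ProteinFx. With trends of expression on GC content and length removed from each library, these smaller values were 0.070 and 0.024. Between genotypes the Ednrb log2 fold change was 0.24 (SE 0.12) after EVFx, where the direction turned to -0.064 with those trends removed, and -0.11 (SE 0.15) after ProteinFx. Mean Ednrb levels of the 2 genotypes differed by less than 1 SD of the libraries within each fraction.

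**Figure D2:**
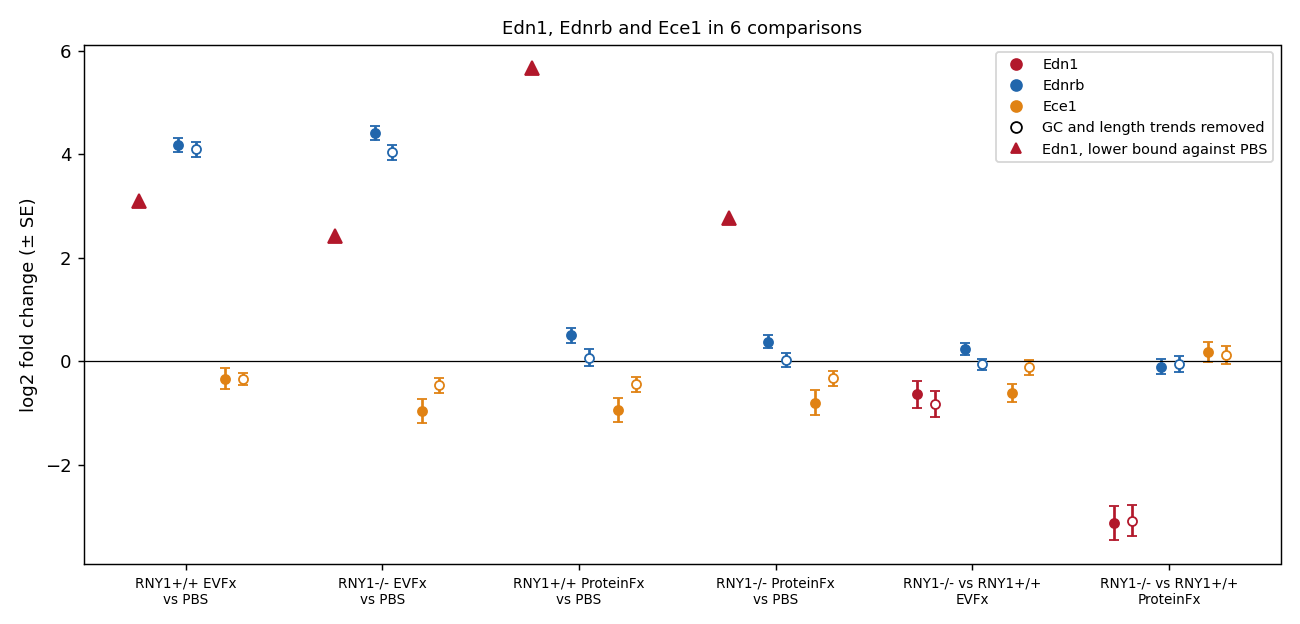
log2 fold change (± SE) of Edn1, Ednrb and Ece1 in 6 comparisons. Filled circles are the edgeR values, open circles those with GC and length trends removed, and triangles the lower bounds of Edn1 against PBS. Ednrb stands at 4.18 and 4.41 for EVFx and Edn1 at -3.13 for RNY1-/- against RNY1+/+ ProteinFx.

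Ece1, the converting enzyme, was measurable in every library at 16 to 106 counts, and its mean was highest in PBS. The PBS libraries had 17.8, 16.4, 8.92 and 13.2 CPM (14.1 ± 3.95, SD, n = 4), the widest spread of the 5 groups. After RNY1+/+ EVFx the level was 9.69, 8.88, 9.01 and 11.8 CPM (9.86 ± 1.37, SD, n = 4), which overlapped PBS. After RNY1-/- EVFx it was 7.09, 7.00, 4.43 and 5.55 CPM (6.02 ± 1.27, SD, n = 4), below every PBS and every RNY1+/+ EVFx library.

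After RNY1+/+ ProteinFx, Ece1 was at 6.32, 7.10, 7.54 and 5.38 CPM (6.58 ± 0.95, SD, n = 4), below every PBS library. After RNY1-/- ProteinFx it was at 7.75, 9.79, 6.37 and 6.48 CPM (7.60 ± 1.59, SD, n = 4), and 1 of these libraries exceeded the lowest PBS library. Along the order PBS, RNY1+/+ EVFx, RNY1-/- ProteinFx, RNY1+/+ ProteinFx and RNY1-/- EVFx, each group overlapped its neighbours.

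Ece1 log2 fold changes against PBS were -0.34 (SE 0.21) for RNY1+/+ EVFx, -0.97 (SE 0.23) for RNY1-/- EVFx, -0.95 (SE 0.23) for RNY1+/+ ProteinFx and -0.80 (SE 0.24) for RNY1-/- ProteinFx. CPM lower than in PBS without overlap was common, at 36.5% of all genes after RNY1-/- EVFx and 31.2% after RNY1+/+ ProteinFx. Between genotypes, the Ece1 value was -0.61 (SE 0.17) after EVFx, where 26.9% of all genes were lower without overlap, and 0.17 (SE 0.19) after ProteinFx. The annotated Ece1 transcripts have a mean GC content of 59.1%, against 46.1% for Edn1 and 44.2% for Ednrb. With GC and length trends removed, the Ece1 values against PBS became -0.34, -0.47, -0.45 and -0.33 in the same order, and the genotype value after EVFx became -0.12. An antisense gene that overlaps Ece1, Gm13012, had mean levels of 2.89 CPM in PBS, 4.62 and 3.04 CPM after RNY1+/+ and RNY1-/- EVFx, and 1.31 and 0.84 CPM after the corresponding ProteinFx. The authors counted reads by strand. The antisense gene at Edn1, Gm47118, was at 0 in all groups.

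Ecel1 was not detectable at this depth, with 3 counts in all 20 libraries and never more than 1 in a library. The other ligands were likewise under the floor, with 0 counts of Edn2 and 3 of Edn3 in total. Ednra, the other receptor, had 6 counts in total and Ece2, the other converting enzyme, 3.5, neither with more than 1 in any library. Thus 1 ligand, 1 receptor and 1 converting enzyme transcript of the family were measurable in these macrophages.

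Edn1 and Ednrb did not follow each other across treatments. Over the 20 libraries, on log2 CPM (TMM-scaled, prior count 2), Pearson's r was 0.10 between Edn1 and Ednrb, -0.65 between Edn1 and Ece1 and -0.15 between Ednrb and Ece1. The points share 5 treatments, so these values describe the group pattern, and in PBS the Edn1 value rests on the prior count.

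**Figure D3:**
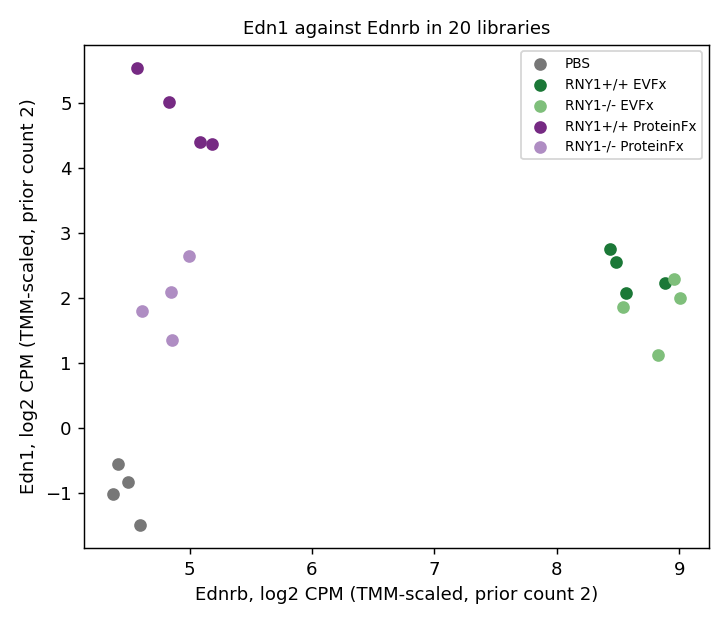
Edn1 against Ednrb in each of the 20 libraries, both as log2 CPM (TMM-scaled, prior count 2), coloured by treatment. The ProteinFx and PBS libraries share the low Ednrb range and are spread along the Edn1 axis, while both EVFx groups sit together at high Ednrb.

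The genes most like each member were found by Pearson's r over the same 20 libraries among the 7443 (7442 for Ednrb) genes with a mean of at least 10 CPM. Nearest to Edn1 were Notch1 (r = 0.97), Cyfip1 (r = 0.95) and Rapgef2 (r = 0.94). The mean level of Notch1, a cell surface receptor, was 21.1 CPM in PBS, 34.4 and 31.1 CPM after RNY1+/+ and RNY1-/- EVFx, and 55.2 and 38.7 CPM after the corresponding ProteinFx. Rapgef2, a Rap exchange factor, went from 13.9 CPM in PBS to 132 CPM after RNY1+/+ ProteinFx and 52.0 CPM after RNY1-/- ProteinFx. It was at 36.2 and 47.0 CPM after RNY1+/+ and RNY1-/- EVFx, the opposite order of genotypes to Edn1. Like Edn1, both Notch1 and Rapgef2 had their highest mean in RNY1+/+ ProteinFx.

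Nearest to Ednrb were Acss2 (r = 0.99), Ampd3 (r = 0.98) and Ubap1 (r = 0.98). Acss2, which makes acetyl-CoA from acetate, had means of 5.07 CPM in PBS, 99.7 and 91.3 CPM after RNY1+/+ and RNY1-/- EVFx, and 9.09 and 7.01 CPM after the corresponding ProteinFx. Nearest to Ece1 were Ctbp1 (r = 0.97), Renbp (r = 0.97) and Slc38a10 (r = 0.96). Ctbp1, a transcriptional corepressor, had its highest mean in PBS (69.0 CPM) and its lowest after RNY1-/- EVFx (26.8 CPM), as Ece1 did. These genes were picked for their likeness, so the correlations carry no test.

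Of the 8 nearest protein-coding neighbours of the members, all but Hivep1 and Eif4g3 averaged 0.32 CPM or less over the 20 libraries. Hivep1, a zinc finger gene 108.94 kb to the left of Edn1, rose with a log2 fold change of 1.02 (SE 0.14, adjusted p = 0.00011, edgeR) after RNY1-/- EVFx and 1.08 (SE 0.15, adjusted p = 0.00014, edgeR) after RNY1+/+ ProteinFx. After RNY1+/+ EVFx and RNY1-/- ProteinFx it was at 0.68 and 0.82, under the fold change limit. Between genotypes after ProteinFx, Hivep1 differed by -0.25 (SE 0.17, adjusted p = 0.46, edgeR). Eif4g3, a translation initiation factor gene 27.79 kb to the right of Ece1, passed no fold change limit, with log2 fold changes against PBS of 0.23 to 0.67.

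The wider pathway was followed through 60 other genes in lists of convertases, proteases, G proteins, phospholipase C and calcium release genes, receptor kinases and arrestins, and factors known to act on the Edn1 promoter. Of these, 38 passed the filter and 22 did not, among them the 2 other ligands, Ednra, Ece2, Mme, Mmel1, Phex, Kel, Pcsk5, Pcsk6, Cma1, Mcpt4 and Mmp2. DEGs among the 38 numbered 7 after RNY1+/+ EVFx (4 higher, 3 lower, median log2 fold change -0.06 against -0.03 over all genes), where 16.4% of all genes were DEGs, and 13 after RNY1-/- EVFx (4 higher, 9 lower, median -0.16 against -0.03), where 22.5% were. After RNY1+/+ ProteinFx they numbered 10 (3 higher, 7 lower, median 0.03 against -0.03), where 21.3% of all genes were DEGs. After RNY1-/- ProteinFx they numbered 6 (1 higher, 5 lower, median -0.03 against -0.03), where 14.3% of all genes were DEGs. As shares of the list these were 18.4%, 34.2%, 26.3% and 15.8%. With GC and length trends removed, 8, 6, 6 and 4 were called, of which 3, 1, 1 and 0 were lower and the others higher. Among all genes, that setting called 1671 of 10472, 1843 of 10392, 1740 of 10482 and 1023 of 10511.

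Among the proteases that act on endothelins, Furin and Pcsk7, the measured convertases, were DEGs in none of the 6 comparisons. Furin ran from 29.3 to 66.0 CPM in PBS, 38.6 to 60.6 and 27.8 to 37.1 CPM after RNY1+/+ and RNY1-/- EVFx, and 31.7 to 35.8 and 24.9 to 44.0 CPM after the corresponding ProteinFx, so all treated groups overlapped PBS. Ctsa encodes cathepsin A, a lysosomal carboxypeptidase known to inactivate endothelin-1. It ran between 232 and 546 CPM in PBS, and was lower after RNY1-/- EVFx (129 to 174 CPM), RNY1+/+ ProteinFx (136 to 173 CPM) and RNY1-/- ProteinFx (138 to 241 CPM, which overlapped PBS). After RNY1+/+ EVFx it ran from 222 to 301 CPM, which overlapped PBS, and was not called (-0.52, adjusted p = 0.086, edgeR). Its log2 fold changes in the 3 groups called lower were -1.22, -1.29 and -1.06 (adjusted p = 0.001, 0.00068 and 0.013, edgeR). The third was lost when PBS replicate 1 or 2 or RNY1-/- ProteinFx replicate 3 or 4 was left out, and with GC and length trends removed the 3 values were -0.61, -0.66 and -0.47, all under the fold change limit.

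Of the 8 measured phospholipase C and calcium release genes, Prkcb, a protein kinase C isoform, rose after EVFx by 1.93 (SE 0.13, adjusted p = 6.7e-07, edgeR) with RNY1+/+ and 2.11 (SE 0.14, adjusted p = 4.4e-07, edgeR) with RNY1-/- fluid, on the log2 scale. Itpr1, an inositol trisphosphate receptor of the endoplasmic reticulum, rose after ProteinFx by 1.86 (SE 0.18, adjusted p = 7.5e-06, edgeR) and 1.80 (SE 0.18, adjusted p = 3.7e-05, edgeR). In the whole list 3, 3, 2 and 1 genes were called in RNY1+/+ EVFx, RNY1-/- EVFx, RNY1+/+ ProteinFx and RNY1-/- ProteinFx. The others called, named with their values known, were Itpr2, Itpr3 and Plcb2. Itpr2 rose after RNY1+/+ and RNY1-/- EVFx, at 1.66 and 1.33. Itpr3 fell there, at -1.26 and -1.15, the second at -0.75 with GC and length trends removed. Plcb2 fell after RNY1+/+ ProteinFx, at -1.08, and was at -0.85 with trends removed.

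Of the 6 receptor kinases and arrestins measured, Grk3, a kinase that phosphorylates activated receptors, rose after EVFx by 1.78 (SE 0.23, adjusted p = 8.4e-05, edgeR) with RNY1+/+ and 2.34 (SE 0.22, adjusted p = 5.9e-06, edgeR) with RNY1-/- fluid. Arrb1, an arrestin that uncouples receptors from G proteins, fell after ProteinFx, with log2 fold changes of -1.73 (adjusted p = 0.00019, edgeR) for RNY1+/+ and -1.19 (adjusted p = 0.0083, edgeR) for RNY1-/-. It also fell after RNY1-/- EVFx, at -1.19 (adjusted p = 0.00082, edgeR). Both RNY1-/- values were under the limit with GC and length trends removed, at -0.91 after ProteinFx and -0.89 after EVFx. The list held 1, 2, 1 and 1 called genes in the same order of groups.

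Of the 7 measured G protein α subunits, 1, 3, 4 and 2 were called. Gna12 fell after EVFx, with log2 fold changes of -1.48 (adjusted p = 2.4e-06, edgeR) for RNY1+/+ and -1.70 (adjusted p = 1.1e-06, edgeR) for RNY1-/-, and also after RNY1+/+ ProteinFx, at -1.24 (adjusted p = 1.1e-05, edgeR). After RNY1-/- ProteinFx it was at -0.99, under the limit, and with GC and length trends removed the RNY1+/+ ProteinFx value was -0.86. Gnai2, an inhibitory α subunit, fell after ProteinFx, at -1.32 (adjusted p = 0.0015, edgeR) and -1.17 (adjusted p = 0.018, edgeR), and also after RNY1-/- EVFx, at -1.31 (adjusted p = 0.0016, edgeR). With GC and length trends removed, these Gnai2 values were -0.62, -0.53 and -0.64, under the limit. Gna11 and Gna15 are named with their values known. Gna11 was called lower in RNY1-/- EVFx, RNY1+/+ ProteinFx and RNY1-/- ProteinFx, at -1.24, -1.02 and -1.14. With trends removed it was at -0.95, -0.73 and -0.87, under the limit. Gna15 was called higher after RNY1+/+ ProteinFx, at 1.25 (adjusted p = 0.0051, edgeR), and was at 1.80 with trends removed. After RNY1-/- ProteinFx it was at 0.96, under the limit, and at 1.47 with trends removed.

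Of the 14 measured factors that act on the Edn1 promoter, 2, 4, 2 and 1 were called. Fos, a subunit of AP-1, fell after EVFx, at -1.98 (adjusted p = 2.2e-05, edgeR) for RNY1+/+ and -1.17 (adjusted p = 0.00063, edgeR) for RNY1-/-, the second at -0.86 with GC and length trends removed. After ProteinFx it was higher, at 0.63 and 0.78 (adjusted p = 0.029 and 0.045, edgeR), under the limit. With trends removed these values were 0.96 and 1.13, the second over the limit (adjusted p = 0.038, edgeR). Junb, also of AP-1, was called higher after RNY1+/+ EVFx, at 1.01 (adjusted p = 0.0002, edgeR). After RNY1-/- EVFx, RNY1+/+ ProteinFx and RNY1-/- ProteinFx it was under the limit, but at 1.46, 1.35 and 1.14 with trends removed. Fosl2 (-1.245) and Hif1a (1.04) were called after RNY1-/- EVFx, neither with trends removed. Junb, Fosl2 and Hif1a are named with their values known. Nfkb1, which encodes an NF-κB subunit, was called higher after RNY1+/+ ProteinFx at 1.10 (SE 0.15, adjusted p = 0.00012, edgeR), and is named here after its value was seen. It was at 0.79 (adjusted p = 0.017, edgeR) after RNY1-/- ProteinFx, under the fold change limit, and at -0.30 (adjusted p = 0.38, edgeR) between genotypes after ProteinFx. Rela, which encodes another NF-κB subunit, was called lower after RNY1+/+ ProteinFx, RNY1-/- ProteinFx and RNY1-/- EVFx, at -1.27, -1.09 and -1.17 (adjusted p = 0.005, 0.027 and 0.0051, edgeR). With GC and length trends removed these were -0.65, -0.52 and -0.57, under the limit.

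Between genotypes after EVFx, 24 of the 38 genes had an unadjusted p under 0.05 and 22 an adjusted p under 0.05 (edgeR). An adjusted p under 0.05 was common, at 5379 of all 10322 genes tested. Of the 38, 1 also passed the fold change limit. It was Rela, at -1.08 (SE 0.17, adjusted p = 0.0004, edgeR), where 2.35% of all genes were DEGs. Rela was -0.94 and not called without RNY1+/+ EVFx replicate 4, and -0.56 with GC and length trends removed. In that setting 1 other gene, Fos, was called, at 1.20 (adjusted p = 0.00016, edgeR), where 93 of all 10020 genes were called. In the main fit Fos was at 0.81 (adjusted p = 0.0002, edgeR), under the limit. After ProteinFx 0 of 38 were called by edgeR or by DESeq2, 7 had an unadjusted p under 0.05, and 1 had an adjusted p under 0.05 (Prkcb, -0.78, adjusted p = 0.0067, edgeR), below the fold change limit. Prkcb is named here after its value was seen. Among all genes after ProteinFx, 583 of 10472 had an adjusted p under 0.05. In the test of whether the genotype difference changed with the fraction, 3 of 38 were called (Rela, Arrb1 and Gnai2), where 7.79% of all genes were called.

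**Figure D4:**
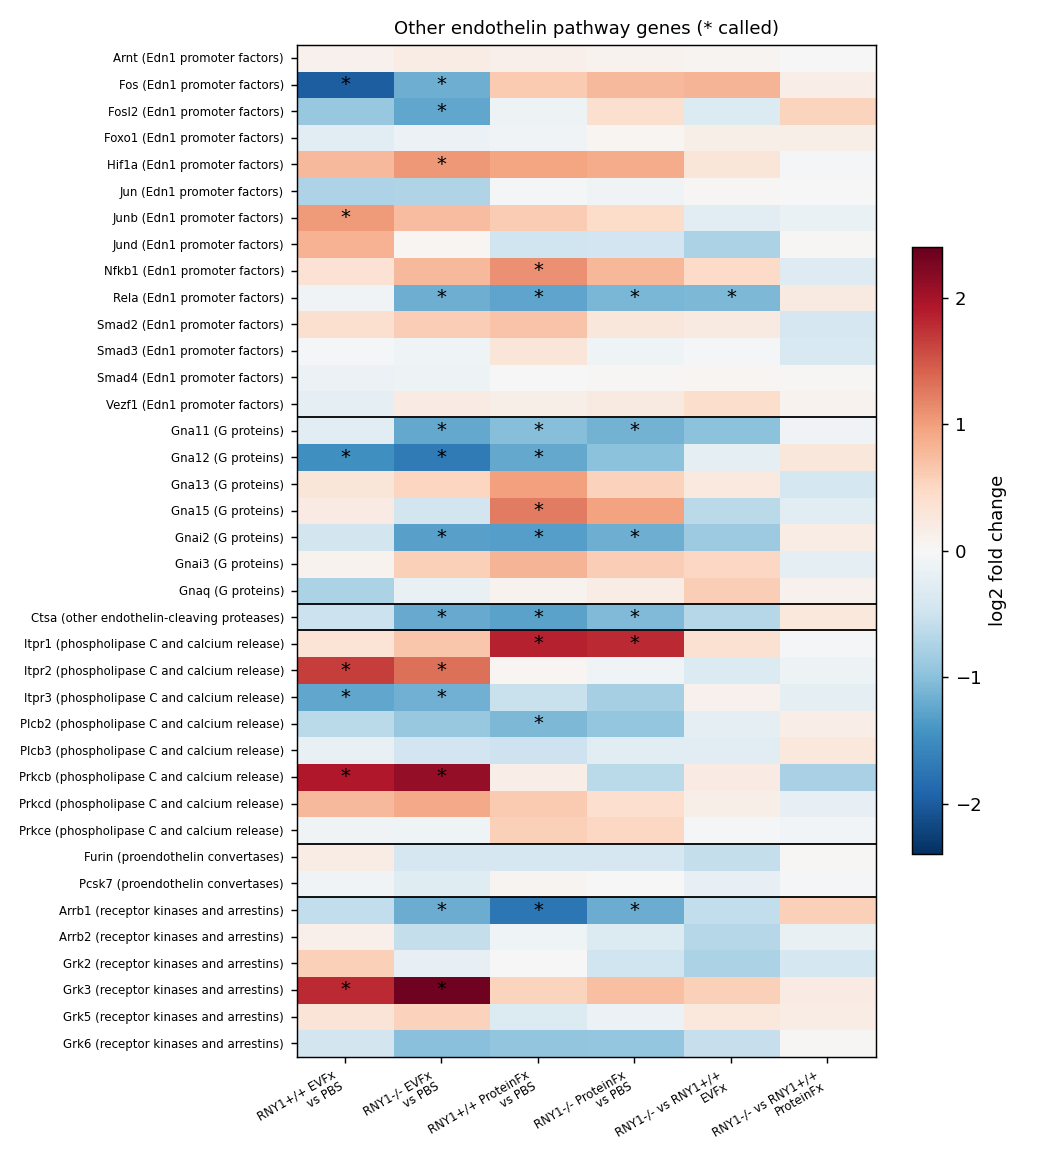
log2 fold changes of the 38 other measured genes of the endothelin pathway (rows, by list) in 6 comparisons (columns). Asterisks mark adjusted p under 0.05 with an absolute log2 fold change above 1, which hold 7, 13, 10, 6, 1 and 0 genes from left to right.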

How the data were processed

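The authors' service provider prepared 3′-end libraries with unique molecular identifiers and, per the submitters' processing notes, used fastp 0.24.0, STAR 2.7.11 and featureCounts (Subread 2.1.1) on GRCm39. Reads were deduplicated by identifier and counted by strand on exons and 3′ UTRs, with reads of several places shared as fractions. The deposited table holds expected counts per gene, not normalized by the authors, beside CPM that they derived from each library's total. Counts stand for molecules, and 3 counts in a library was taken as the floor of measurement. A 3′ count reads the transcript's end, so no level is compared between genes.

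Expected counts were rounded. Each comparison used 8 libraries (16 for genotype by fraction), genes kept by filterByExpr with a mean of at least 3 CPM, TMM scaling, and edgeR 4.0.16 (glmQLFit, glmQLFTest; R 4.3.3) with Benjamini-Hochberg adjustment over all genes tested. SE is the log2 fold change divided by the root of F. A DEG passed 0.05 in adjusted p and exceeded 1 in absolute log2 fold change. The members, gene lists, the naming rule (members, all protease, ligand and receptor genes, the 3 called genes with the largest change per comparison of the other lists, and the 3 genes most correlated with each member) and the tests were chosen with earlier results of these data known. Promoter windows are from RefSeq (GRCm38.p6), with all 4 members matched, and gene positions, transcript lengths and GC contents from GENCODE (GRCm38). The scripts were tested on simulated data.

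Replicate numbers recur in each group. Same-numbered libraries deviated together (every correlation over 0.1) in RNY1-/- EVFx and PBS, alone among the pairs of groups compared directly, from 0.13 to 0.38. Even there, 3 of 8 libraries correlated best with their own number. The main fits used no pairing, and the numbers entered only in the replicate block, an alternative. Alternatives were DESeq2 1.42.0, total counts in place of TMM, scaling to 3 housekeeping genes (Rab14, Arpc2, Cltc), filterByExpr alone, 1 fit of 20 libraries, removal of GC and length trends (splines of 4 degrees of freedom, 96.8% to 97.1% of genes), the replicate block and leaving out each library.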

Additional observations from a re-analysis of the deposited data

Results flagged for a closer look

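Between fractions, 3 of the 38 measured pathway genes differed in their genotype effect (RNY1-/- against RNY1+/+) by the interaction test of edgeR. This is 7.89% of them, near the 7.79% of all genes tested. The effect after ProteinFx minus that after EVFx was 1.29 on the log2 scale for Rela (SE 0.31, adjusted p = 0.0069, edgeR), 1.15 for Arrb1 (SE 0.33, adjusted p = 0.016, edgeR) and 1.04 for Gnai2 (SE 0.23, adjusted p = 0.0054, edgeR). With GC and length trends removed the 3 values were 0.71, 0.81 and 0.49, all under the fold change limit. That setting called 2 other pathway genes in the opposite direction, where 406 of all 10118 genes were called. They were Fos, at -1.02 (adjusted p = 0.04, edgeR), and Prkcb, at -1.04 (adjusted p = 0.0015, edgeR). Rela was called with each of the 16 libraries left out, Arrb1 in 14 of 16 and Gnai2 in 13 of 16. In 30 groups of 4 libraries (Edn1, Ednrb, Ece1, Furin, Pcsk7 and Ctsa in 5 treatments), 0 held a library beyond Dixon's limit, where chance gives about 1 in 20.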

How the results depend on the processing

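Over 21 member values (log2 fold changes and Edn1 bounds), 299 of 311 alternative values moved by less than the spread between libraries. Another 10 moved by more and 2 changed sign. None of the 12 came from leaving out a library. Leaving out 1 of the 4 libraries of a group can hardly move its mean by that spread, so nothing is read from this. The 299 include these leave-one-out values. Removal of GC and length trends turned Ednrb in RNY1-/- against RNY1+/+ EVFx to -0.064 and in genotype by fraction to 0.022 (-0.35 before). It moved Ednrb to 4.04 in RNY1-/- EVFx, 0.070 in RNY1+/+ ProteinFx and 0.024 in RNY1-/- ProteinFx, and Ece1 to -0.47, -0.45 and -0.33 in these 3 groups, -0.12 in RNY1-/- against RNY1+/+ EVFx and 0.26 in genotype by fraction (0.79 before). Total counts in place of TMM moved Ednrb to 4.00 and 4.17 after RNY1+/+ and RNY1-/- EVFx, as the median of all genes went from -0.03 to -0.21 and -0.27. TMM-scaled Ednrb in PBS was 21.9 CPM.

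Pathway DEGs with no fold change limit numbered 15, 24, 19 and 17 against PBS (RNY1+/+ EVFx, RNY1-/- EVFx, RNY1+/+ ProteinFx, RNY1-/- ProteinFx), 22 and 1 between genotypes (EVFx, ProteinFx) and 15 for genotype by fraction. Among all genes the numbers against PBS were 4809 of 10797, 6258 of 10730, 5978 of 10834 and 3878 of 10856. Between genotypes they were 5379 of 10322 and 583 of 10472, and for genotype by fraction 3449 of 10443. With GC and length trends removed, 6 were called after RNY1-/- EVFx and 6 after RNY1+/+ ProteinFx, each with 5 higher and 1 lower. Total counts gave 2 between genotypes after EVFx and 6 for genotype by fraction, with 320 of 10322 and 1108 of 10443 called among all genes. Leaving out libraries gave 2 to 8 after RNY1-/- ProteinFx (3 without PBS replicate 2, 2 without RNY1-/- ProteinFx replicate 4), 0 to 2 between genotypes after EVFx and 1 to 6 for genotype by fraction (1 without RNY1+/+ EVFx replicate 4). With the replicate block the counts were 7, 13, 9, 6, 1, 0 and 3 in the order of comparisons above, and it changed the sign of no member. In the other 5 pairwise comparisons, same-numbered libraries correlated from -0.37 to 0.64 in their deviations. RNY1-/- EVFx with RNY1-/- ProteinFx, both in the genotype by fraction fit, correlated from 0.22 to 0.40, and RNY1+/+ EVFx with RNY1-/- ProteinFx went down to -0.39. In the pairwise comparisons, 0 to 5 of 8 libraries correlated best with their own number. The cause of these shifts was not tested. Depth limits Ecel1 and, in PBS, Edn1.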
